A study of Mus musculus with 16 samples.

Results

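The genes described here are 5 matrix metalloproteinases (Mmp2, Mmp11, Mmp14, Mmp19 and Mmp23) and 3 tissue inhibitors of metalloproteinases (Timp1, Timp2 and Timp3), 8 of the 18193 genes on the array that carry a symbol of their own. A gene was taken from its probe sets that the platform annotation assigns to that symbol alone, 21 in all for the 8 genes, and was represented by the one that averaged highest across the 16 arrays. RNA came from hepatic stellate cells, the retinoid-storing pericytes of the liver that turn into matrix-producing myofibroblasts, of male Balb/c mice aged 8 to 10 weeks. No group carried a transgene or mutation per the labels, and all preparations were depleted of cells bearing F4/80, a macrophage surface protein. Quiescent cells (5 arrays) were from normal mice and were plated for 24 h. Culture cells (3 arrays) were kept on plastic with 10% fetal bovine serum for 5 days, and coculture cells (2 arrays) were kept likewise with Kupffer cells, the macrophages of the liver, in transwell inserts without contact. Bile duct ligation cells (3 arrays) were from mice ligated for 15 days, and CCl4 cells (3 arrays) from mice given 4 intraperitoneal injections of carbon tetrachloride at 0.5 µl per g body weight. Both were plated for 24 h. The quiescent cells had thus also been on plastic, and days on plastic, serum and activation cannot be told apart in the culture groups. The labels do not say which arrays came from separate mice. The p-values therefore reflect the spread among the arrays given here, part of which may be technical.

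Metalloproteinases are zinc enzymes that cut matrix proteins outside the cell, and most are made as inactive precursors. TIMPs occupy the active site of the enzymes and block it. On the cell surface the membrane enzyme Mmp14 activates the gelatinase precursor pro-Mmp2, and Timp2 acts as the bridge that brings the pair together. Timp3 binds to the matrix and also blocks several ADAM proteases. In liver fibrosis Timp1 is widely used as a transcript that accompanies scar formation.

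Expression is given on the deposited log2 scale, probe set by probe set, on which a difference of 1 is a 2-fold difference and unexpressed probe sets lie near 2 (array medians, 2.00 to 2.06). Levels are compared between groups for the same probe set and never between genes. Genes were tested across all 16 arrays in 1 linear model with limma, 7823 genes having passed a filter of log2 5 on at least 2 arrays. A gene was called when its adjusted p was under 0.05. Mmp2, Mmp14, Timp1, Timp2 and Timp3 reached log2 5 on 16 of 16 arrays. Mmp11, Mmp19 and Mmp23 did so on 3 arrays each, so they passed the filter through the arrays in which they were highest, and a difference from those groups follows in part from that choice. Their other values lay between 1.56 and 5.00. Where a group lies near log2 2, its true level is not resolved, and a difference from it is at best a lower bound. The lineage genes Des and Pdgfrb averaged between 7.83 and 11.33 in every group. Of 10 stellate markers on the array, 10 averaged log2 5 or more in quiescent, culture and coculture cells and 9 after each injury. The exception was Lrat, at 5.61 in quiescent cells, 9.75 in culture, 7.98 in coculture, 4.78 after bile duct ligation and 3.81 after CCl4. The 2 coculture arrays lay far apart for Colec11 (6.06 ± 4.16, SD) and Lrat (SD 2.18), beside SDs of 0.10 to 1.23 for the other stellate markers. The markers thus did not all stay level. Their summed level was 88 to 99.1 in quiescent arrays, 103.2 to 111 in culture and 87.1 to 99.7 in coculture. It was 89.7 to 94.4 after bile duct ligation and 86.1 to 91 after CCl4. Quiescent replicate 4 and culture replicate 3 correlated least with the rest of their groups (mean r across the tested genes, 0.937 and 0.952, against at most 0.962 and 0.97 for the others). RNA was measured in bulk, where fewer cells of a type and less RNA per cell cannot be told apart.

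The genes were grouped under the name constitutive, but their levels were not all constant. By the moderated F-test of limma 7 of the 8 differed among the 5 groups, beside 63% of all tested genes. These shares were not tested against each other. Among the 7, Mmp19 and Mmp23 passed the filter through the arrays in which they were highest. Adjusted p was between 7.26e-07 for Timp2 and 0.0211 for Mmp2, while Mmp11 did not pass (adjusted p = 0.0799). Mmp2 did not pass without coculture replicate 2 (adjusted p = 0.204), Mmp14 did not pass with its second probe set (adjusted p = 0.503), and Mmp11 passed without quiescent replicate 3 or 4 (adjusted p = 0.0254 and 0.0102). The 3 inhibitors moved apart from one another. Timp1 was high in coculture and in both injury groups, Timp2 was high in culture, and Timp3 was low in both groups kept for 5 days. The group means of Mmp14 lay within 0.80 of one another, and those of Timp1 spanned 3.67, a span that includes the low value of culture replicate 3.

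**Figure D1:**
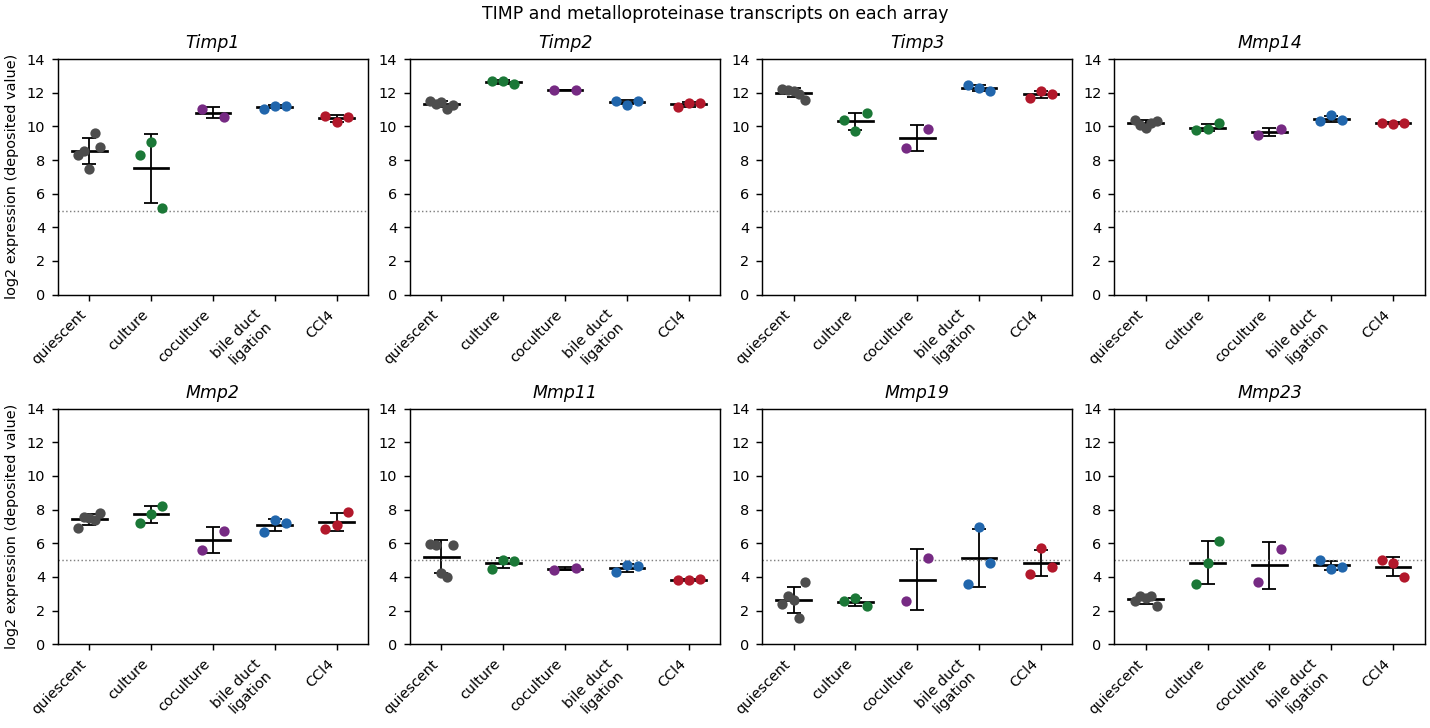
Deposited log2 expression of the 8 genes on each of the 16 arrays, 1 panel per gene; points are arrays, horizontal bars group means and whiskers the standard deviation, and the dotted line marks log2 5. Timp1 lies above 10 on all coculture, bile duct ligation and CCl4 arrays, Timp3 lies below 11 on all culture and coculture arrays and above 11.5 on the others, and Mmp11, Mmp19 and Mmp23 lie at or below 7 throughout.

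The sequences before the start sites of the 3 inhibitor genes are shown because the levels of each transcript followed the groups in their own way. They are the 250 bases before each annotated start, 5′ to 3′ on the gene's strand, from RefSeq on GRCm38.p6, at chrX:20869916-20870165 (plus strand) for Timp1, chr11:118355412-118355661 (minus strand) for Timp2 and chr10:86300162-86300411 (plus strand) for Timp3. Capitals mark GGGCGG (the GC box bound by Sp1) and AGGAAG (a PEA3 motif of Ets factors), each searched on both strands.

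Timp1: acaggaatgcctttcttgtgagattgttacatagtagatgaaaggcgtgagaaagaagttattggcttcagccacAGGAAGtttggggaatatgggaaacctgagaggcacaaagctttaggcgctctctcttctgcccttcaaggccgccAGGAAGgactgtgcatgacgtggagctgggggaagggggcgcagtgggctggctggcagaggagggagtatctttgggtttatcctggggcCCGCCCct

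Timp2: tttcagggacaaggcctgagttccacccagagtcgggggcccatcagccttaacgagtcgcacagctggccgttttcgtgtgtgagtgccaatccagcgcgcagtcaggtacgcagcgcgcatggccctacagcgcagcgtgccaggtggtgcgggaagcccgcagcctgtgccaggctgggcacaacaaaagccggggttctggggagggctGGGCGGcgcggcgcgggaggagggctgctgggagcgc

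Timp3: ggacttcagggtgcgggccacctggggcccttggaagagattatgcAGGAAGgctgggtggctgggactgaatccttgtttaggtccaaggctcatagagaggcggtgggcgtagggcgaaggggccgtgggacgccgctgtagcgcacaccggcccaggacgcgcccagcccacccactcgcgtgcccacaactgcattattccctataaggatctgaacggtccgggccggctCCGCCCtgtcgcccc

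Promoter windows of 250 bases before to 50 after the start matched 6 of the 8 genes in this table, with Mmp2 and Mmp19 not among them. In these windows Timp1 held the AP-1-like motif TGAGTAA, which 2.68% of all 32851 promoter windows hold, and no other of the 6 genes did. It begins 27 bases into the transcribed sequence, at the capitals of the following 30 bases (chrX:20870182-20870211), where a PEA3 motif ends the stretch.

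Timp1 site: ggtgggtggaTGAGTAAtgcgtccAGGAAG

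The canonical AP-1 motif TGANTCA, present in 7.81% of windows, and TATAAA, in 13.6%, were found in none of the 6 genes. The motifs do not overlap one another, and TGANTCA reads the same on both strands. A GC box was present in the windows of all 6 genes (1 of the 2 starts of Mmp23), as in 35.7% of windows. The PEA3 motif was present 3 times in the Timp1 window and once each in those of Timp3 and Mmp14, and 35.4% of windows hold it. These matches describe the letters of the windows only.

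Timp1, the soluble inhibitor that blocks most secreted metalloproteinases, stood at 8.28, 8.53, 7.48, 9.62 and 8.78 on the 5 quiescent arrays. It stood at 8.29, 9.07 and 5.16 in culture and at 11.05 and 10.58 in coculture. The bile duct ligation arrays gave 11.05, 11.24 and 11.23, and the CCl4 arrays gave 10.61, 10.24 and 10.57. All 8 arrays of coculture and injury lay above all 8 arrays of quiescent cells and culture, and culture replicate 3 lay far below every other array. After bile duct ligation Timp1 rose 6.21-fold over quiescent cells (log2 difference 2.63 ± 0.63 SE, adjusted p = 0.00907). After CCl4 it rose by 1.94 ± 0.63 (adjusted p = 0.0387). That call was lost in each of 7 fits without a single array, quiescent replicate 1, 2, 3 or 5 or any CCl4 replicate (1.67 to 2.05). It was also lost with no filter, and adjusted p over all alternatives ran from 5.04e-05 to 0.131.

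In coculture Timp1 rose by 2.28 ± 0.72 over quiescent cells (adjusted p = 0.0214) and by 3.31 ± 0.79 over culture (adjusted p = 0.0104). The difference from culture was 2.14 without culture replicate 3 (adjusted p = 0.00931). The latter call was lost in a fit of these groups alone (adjusted p = 0.121). Without coculture replicate 2 both calls were lost (2.04 and 3.08), and without coculture replicate 3 that against quiescent cells was lost (2.51). The culture mean of 7.51 ± 2.07 (SD, n = 3) was 1.03 below that of quiescent cells and not called (adjusted p = 0.201), was called at -1.81 without culture replicate 2 and turned to 0.14 without culture replicate 3. Against the mean of the injury groups, culture was lower by 3.32 ± 0.61 (adjusted p = 0.00039; log2 difference -2.14 without culture replicate 3), whereas coculture differed by -0.01 (95% confidence interval -1.51 to 1.49).

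Timp2, the inhibitor that also takes part in pro-Mmp2 activation, stood between 11.03 and 11.49 on the 5 quiescent arrays (median 11.32). Its culture values were 12.68, 12.71 and 12.50, its coculture values 12.16 and 12.14, its bile duct ligation values 11.51, 11.29 and 11.53 and its CCl4 values 11.15, 11.38 and 11.37. The culture arrays lay above all 13 others and the coculture arrays above all quiescent and injury arrays. In culture Timp2 rose 2.5-fold (1.32 ± 0.10, adjusted p = 3.76e-07). It kept direction and call in all 27 alternatives, with differences of 1.20 to 1.40. It differed from quiescent cells by 0.13 ± 0.10 after bile duct ligation and by -0.01 ± 0.10 after CCl4, and neither was called.

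For coculture the direction of Timp2 depended on the probe set. The probe set above, 1460287_at, was higher in coculture than in quiescent cells by 0.84 ± 0.12 (adjusted p = 9.74e-05). Of the other 5 probe sets of Timp2, 1 stayed below log2 2.2 on every array and 4 were tested in a fit of all 12451 probe sets above the filter. In that fit 1454677_at, 1433662_s_at and 1450040_at were lower in coculture by 0.74, 0.87 and 0.93 (adjusted p = 0.00412, 0.00388 and 0.00665), and 1420924_at differed by 0.09 (adjusted p = 0.861). The mean of all probe sets of the gene gave -0.22. Against culture all 5 agreed in direction, being lower in coculture by 0.48 (1460287_at) to 2.18 (1450040_at), each with adjusted p of at most 0.0217. For 1460287_at this call was lost without culture replicate 1 or 2 or either coculture replicate (-0.49 to -0.44). All 5 were higher in culture than in quiescent cells, by 1.01 to 2.03.

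The gap between 1460287_at and 1454677_at on the same array averaged 0.22 ± 0.19 (SD, n = 5) in quiescent cells and 0.30 ± 0.13 (n = 3) in culture. It was 1.80 ± 0.01 (n = 2) in coculture, 0.65 ± 0.14 (n = 3) after bile duct ligation and 0.89 ± 0.24 (n = 3) after CCl4. The quiescent arrays ranged from -0.09 to 0.42 and the injury arrays from 0.50 to 1.16, so these groups did not overlap. For the gaps to 1433662_s_at, 1450040_at and 1420924_at the quiescent and bile duct ligation arrays did overlap (0.24 to 0.77 against 0.68 to 0.84, 2.02 to 2.55 against 2.11 to 2.67 and 2.70 to 4.19 against 3.90 to 4.19). After CCl4 the gaps to 1433662_s_at (0.89 to 1.32) and 1450040_at (2.74 to 3.03) did not overlap those of quiescent arrays, and that to 1420924_at (3.62 to 3.83) did. The CCl4 arrays gave 1454677_at 0.68 lower than in quiescent cells (adjusted p = 0.00569), and 1433662_s_at and 1450040_at were lower by 0.61 and 0.62 (adjusted p = 0.0242 and 0.0455), while 1460287_at differed by -0.01. The probe sets did not report the same change. Where in the transcript each of them lies is not given in the sources used here, and this pattern was picked out after the values were seen.

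**Figure D2:**
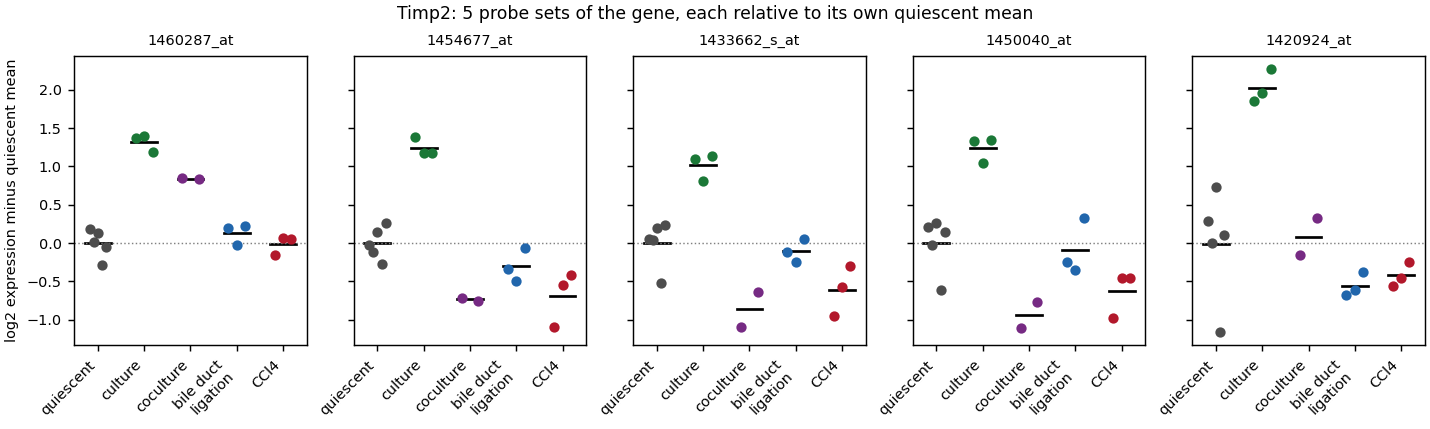
Log2 expression of 5 probe sets of Timp2 on each array, minus the probe set's own mean in quiescent cells; points are arrays and bars group means. Culture lies above 0 in every panel, whereas coculture lies at 0.84 in the first panel and between -0.93 and -0.74 in the next 3.

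Timp3, the matrix-bound inhibitor, stood at 12.24, 12.18, 12.07, 11.95 and 11.57 in quiescent cells. It stood at 10.35, 9.75 and 10.78 in culture and at 8.74 and 9.85 in coculture. The injury arrays lay between 11.68 and 12.44, within or just above the quiescent range. All 5 arrays kept for 5 days lay below all 11 others. Timp3 fell by 1.71 ± 0.24 in culture (3.26-fold lower, adjusted p = 7.35e-05) and fell by 2.71 ± 0.28 in coculture (6.53-fold lower, adjusted p = 5e-06), and both calls held in all 27 alternatives. All 4 probe sets of the gene were called lower in both comparisons, by 1.17 to 1.74 in culture and by 1.63 to 2.71 in coculture. It differed by 0.26 after bile duct ligation (95% confidence interval -0.26 to 0.77) and by -0.09 after CCl4 (-0.61 to 0.42), and none of the 4 probe sets was called.

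Timp3 was lower in coculture than in culture, by 1.00 ± 0.30 (adjusted p = 0.0358), but the arrays overlapped. This call was lost in 9 of 27 alternatives (adjusted p from 0.0071 to 0.501). Among them were the fits without culture replicate 1 (-0.97), culture replicate 3 (-0.76) or coculture replicate 2 (-0.45). Without coculture replicate 3 the difference was -1.55. The other 3 probe sets of Timp3 gave -0.87, -0.56 and -0.46 and were not called.

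Mmp14, the membrane enzyme that starts pericellular collagen breakdown, ranged from 9.49 to 10.67 over the 16 arrays. The quiescent arrays gave 10.36, 10.08, 9.93, 10.21 and 10.31, culture 9.79, 9.82 and 10.18, and coculture 9.49 and 9.82. The bile duct ligation arrays gave 10.32, 10.67 and 10.38, and CCl4 gave 10.21, 10.13 and 10.22. The 2 coculture arrays lay below all quiescent and injury arrays. Mmp14 fell by 0.53 ± 0.15 in coculture against quiescent cells (adjusted p = 0.0119), and the call was lost without coculture replicate 2 (-0.36). Of its other probe sets 1416572_at gave -0.12 (adjusted p = 0.612) and 1440920_at gave -1.23 (adjusted p = 0.00523). In culture the difference was -0.25 and not called, but the mean of the 3 probe sets (-0.45), array weights (-0.34) or leaving out culture replicate 3 (-0.38) led to a call. Mmp14 was not called after bile duct ligation (0.28 ± 0.13, adjusted p = 0.163) or CCl4 (0.01 ± 0.13). Against the injury mean it was lower in culture by 0.39 ± 0.13 (adjusted p = 0.0168) and in coculture by 0.67 ± 0.15 (adjusted p = 0.00323). The culture call was lost without culture replicate 1 (-0.32) or 2 (-0.34), the coculture call without coculture replicate 2 (-0.50), and both with 1416572_at (-0.16 and -0.27).

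Mmp2, gelatinase A, which degrades denatured collagen and basement membrane, stood at 6.90, 7.55, 7.50, 7.41 and 7.78 in quiescent cells and at 7.21, 7.73 and 8.20 in culture. Coculture gave 5.63 and 6.71, bile duct ligation 6.68, 7.38 and 7.18, and CCl4 6.86, 7.06 and 7.85. The coculture arrays lay below every quiescent and culture array and overlapped those of bile duct ligation. Mmp2 fell by 1.54 ± 0.38 in coculture against culture (2.91-fold lower, adjusted p = 0.0121) and fell by 1.26 ± 0.35 against quiescent cells (adjusted p = 0.00998). Both calls were lost without coculture replicate 2 (-1.0 and -0.72, adjusted p = 0.22 and 0.217), and the first also in a fit of these groups alone (adjusted p = 0.0773). The second probe set of Mmp2 gave -1.54 and -1.14 (adjusted p = 0.0117 and 0.0158). Against the injury mean coculture was lower by 1.00 ± 0.34 (adjusted p = 0.0355). That call was lost without coculture replicate 2 (-0.45), bile duct ligation replicate 2 (-0.92) or 3 (-0.97) or CCl4 replicate 3 (-0.85), and with no filter, the mean of probe sets or the second probe set (-0.64). Mmp2 was not called in culture (0.28 ± 0.30), after bile duct ligation (-0.35 ± 0.30) or after CCl4 (-0.17 ± 0.30), each against quiescent cells.

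Mmp23, a small enzyme that lacks the hemopexin domain of its relatives, stood at 2.56, 2.89, 2.76, 2.86 and 2.28 in quiescent cells, near background. Culture gave 3.60, 4.82 and 6.13, coculture 3.71 and 5.65, bile duct ligation 5.00, 4.48 and 4.62, and CCl4 5.02, 4.83 and 3.99. Every array of the 4 activated groups lay above every quiescent array. Mmp23 rose by 2.18 ± 0.49 in culture (adjusted p = 0.00248), by 2.01 ± 0.56 in coculture (adjusted p = 0.0112), by 2.03 ± 0.49 after bile duct ligation (adjusted p = 0.00975) and by 1.95 ± 0.49 after CCl4 (adjusted p = 0.0109). The gene passed the filter through culture replicate 3, coculture replicate 3 and CCl4 replicate 1, so rises in those groups are no independent support for a change. All 4 comparisons share the quiescent arrays, which lay near background, so each size is at best a lower bound. The calls were lost without coculture replicate 3 (1.04), bile duct ligation replicate 1 (1.88) and CCl4 replicate 1 (1.74) in turn, and that in culture held in all 23 alternatives. The levels of the activated groups, 4.61 to 4.85, did not differ from one another beyond their spread. A second probe set, too dim to be tested, averaged 2.13 ± 0.14 in quiescent cells and 3.33 to 3.92 in the activated groups.

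Mmp19, an enzyme that cuts basement membrane proteins, stood at 2.38, 2.85, 2.65, 1.56 and 3.73 in quiescent cells and at 2.55, 2.76 and 2.24 in culture. Coculture gave 2.55 and 5.13, bile duct ligation 3.58, 6.99 and 4.84, and CCl4 4.17, 5.71 and 4.61. All CCl4 arrays lay above all quiescent arrays, and bile duct ligation replicate 1 lay within the quiescent range. Mmp19 passed the filter through coculture replicate 3, bile duct ligation replicate 2 and CCl4 replicate 2, so calls resting on those groups are no independent support for a change. It rose by 2.51 ± 0.70 after bile duct ligation (adjusted p = 0.0225) and by 2.20 ± 0.70 after CCl4 (adjusted p = 0.0356), again at best lower bounds from a group near background. The first call was lost without bile duct ligation replicate 2 (1.58). The second was lost without quiescent replicate 1, 2, 3 or 4 or any CCl4 replicate (1.76 to 2.53; adjusted p over all alternatives, 0.0162 to 0.154). In culture Mmp19 was lower than the injury mean by 2.47 ± 0.68 (adjusted p = 0.00711) and differed from quiescent cells by -0.11 (95% confidence interval -1.61 to 1.38). In coculture, where only replicate 3 stood apart from quiescent cells, the difference was 1.21 ± 0.80 and not called. The second probe set of Mmp19, 1421976_at, was too dim to be tested and reached at most 2.80 on any array. Its means were 1.84 in quiescent cells, 1.67 in culture and 2.34 in coculture. After bile duct ligation and CCl4 they were 2.44 and 2.39. All lay near background, where levels are not resolved, so the calls for Mmp19 rest on 1421977_at alone.

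Mmp11, stromelysin-3, which furin activates inside the cell, stood at 5.95, 5.89 and 5.92 on quiescent replicates 1, 2 and 5 and at 4.22 and 4.01 on replicates 3 and 4. It stood at 4.48, 4.99 and 4.97 in culture, at 4.42 and 4.56 in coculture, at 4.29, 4.71 and 4.62 after bile duct ligation and at 3.79, 3.82 and 3.85 after CCl4. The quiescent arrays thus formed a high and a low set, and all CCl4 arrays lay below all 13 others. Mmp11 fell by 1.38 ± 0.41 after CCl4 against quiescent cells (adjusted p = 0.0265), a call lost without quiescent replicate 1, 2 or 5 or any CCl4 replicate (-1.39 to -1.19). It was also lost in a fit of these groups alone (adjusted p = 0.0796). The high quiescent arrays are also the ones through which the gene passed the filter, so this call is no independent support for a change. The differences in culture (-0.39), coculture (-0.71) and bile duct ligation (-0.66) were not called.

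Ordered by group mean, neighbouring groups differed with an adjusted p under 0.05 in limma at these steps. For Timp1 CCl4 stood above quiescent cells, a call lost in 8 of 26 alternatives. Bile duct ligation, coculture and CCl4 were not called against their neighbours among these groups. Timp2 stood on 1460287_at in culture above coculture, a call lost in 5 of 27 alternatives, and in coculture above bile duct ligation (0.71 ± 0.13, adjusted p = 0.00134). The latter order was turned in the group means of 1454677_at (10.35 in coculture and 10.79 after ligation), 1433662_s_at (9.92 and 10.69) and 1450040_at (8.15 and 9.0), and kept in those of 1420924_at (8.08 and 7.44). Timp3 stood after CCl4 above culture (1.61 ± 0.27, adjusted p = 0.000272) and in culture above coculture. At the latter step the arrays overlapped, and the call was lost in 9 of 27 alternatives. For Mmp23 CCl4 stood above quiescent cells, which lay near background. That call was lost without CCl4 replicate 1 (1.74), an array through which the gene passed the filter, so it is no independent support for a change. No neighbouring groups differed in this way for Mmp2, Mmp11, Mmp14 or Mmp19.

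**Figure D3:**
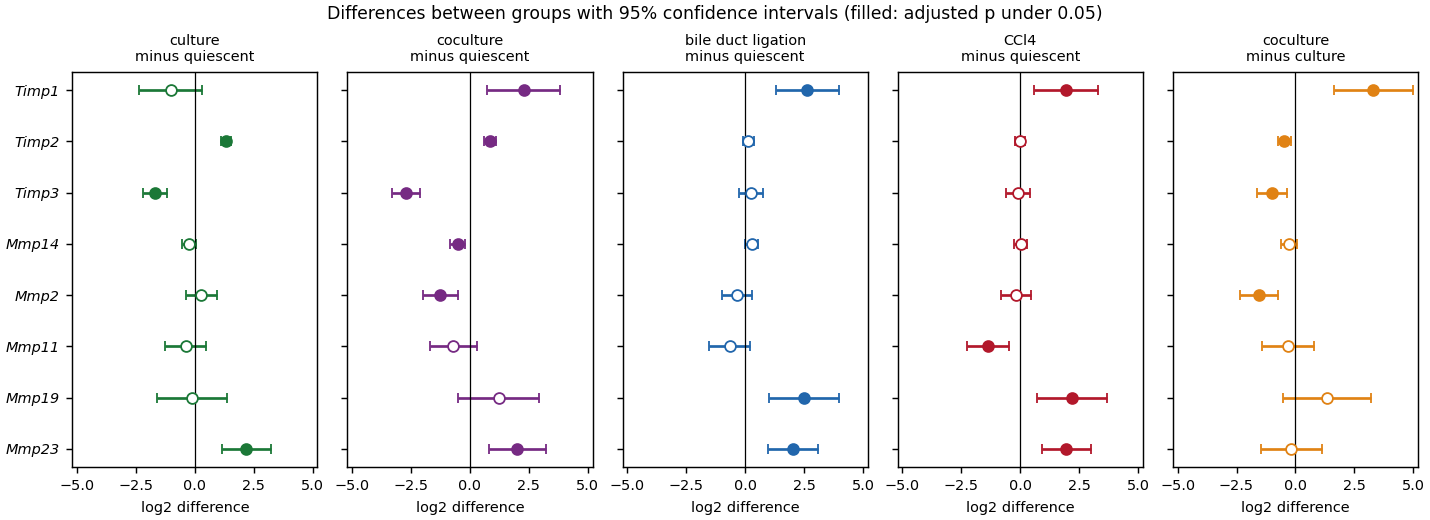
Log2 differences of the 8 genes in 5 comparisons; points are estimates from the fit, whiskers 95% confidence intervals, and filled points have an adjusted p under 0.05. Timp1, Mmp19 and Mmp23 lie above 0 after both injuries, and Timp3 lies between -2.71 and -1.71 in culture and coculture.

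Counted over all 8 genes, 3 were called in culture against quiescent cells (42.1% of all tested genes were), 2 higher (18.5%) and 1 lower (23.5%). In coculture against quiescent cells 6 were called (38.7%), 3 higher (17.8%) and 3 lower (20.9%). The count of 6 was 3 without coculture replicate 2. In coculture against culture 4 were called (15.4%), 1 higher (8.37%) and 3 lower (7.03%). That count was 2 without culture replicate 1 and 0 without coculture replicate 2. Bile duct ligation gave 3 calls (16.9%), 3 higher (8.03%) and 0 lower (8.83%), and CCl4 gave 4 (22%), 3 higher (9.51%) and 1 lower (12.5%). The CCl4 count of 4 was 0 without CCl4 replicate 1, 1 without CCl4 replicate 2 or 3 or quiescent replicate 1 or 2, and 2 without quiescent replicate 3 or 5. All genes called after CCl4 fell as well without CCl4 replicate 1, from 1719 to 869. In culture against the injury mean 5 were called (50.9%), 1 higher (25%) and 4 lower (25.9%). In coculture against it 4 were called (30.3%), 1 higher (15%) and 3 lower (15.3%), or 2 in all without coculture replicate 2. Between bile duct ligation and CCl4 limma called 0 of 8 (0.166% of all genes; 0.0256% higher and 0.141% lower after bile duct ligation), and 0 of 8 had an unadjusted p under 0.05. In that last comparison the arrays did not overlap for Timp1, Mmp14 and Mmp11, each higher after bile duct ligation, beside 25.3% of all genes. Their differences were 0.70 (95% confidence interval -0.80 to 2.20), 0.27 (-0.04 to 0.58) and 0.72 (-0.26 to 1.70). Mmp11, Mmp19 and Mmp23 account for part of these counts. Over the 5 genes at log2 5 or more on all arrays, 2 were called in culture, 5 in coculture, 1 after bile duct ligation and 1 after CCl4, each against quiescent cells, and 4 in coculture against culture. Against quiescent cells the arrays did not overlap for 3 of the 8 genes in culture (39.1% of all genes), 6 in coculture (46.4%), 2 after bile duct ligation (22.6%) and 4 after CCl4 (25.5%). They did not overlap for 3 in coculture against culture (46.2%), 4 in culture against the injury arrays (44.6%) and 3 in coculture against these (39.7%). No share of the 8 genes was tested against that of all genes.

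Some transcripts of other liver cells were higher in the injury groups. Of 15 macrophage markers 3 (Cd68, Lyz1 and Lyz2) averaged log2 5 or more in coculture, bile duct ligation and CCl4, 1 (Cd68) in quiescent cells and 1 (Lyz1) in culture. These 3 did not follow injury alone. Cd68 averaged 7.02 in quiescent cells, 3.74 in culture, 7.82 in coculture, 6.34 after bile duct ligation and 7.06 after CCl4. Lyz1 and Lyz2 averaged 2.49 and 2.02 in quiescent cells, 7.37 and 4.94 in culture and 7.90 and 5.46 after CCl4. The summed level of the list was 29.9 to 33.3 in quiescent arrays, 33.9 to 35.7 in culture, 40.8 to 43.3 in coculture, 40.9 to 57.5 after bile duct ligation and 41.2 to 51.0 after CCl4. Adgre1, which encodes F4/80, and the Kupffer cell gene Clec4f stayed at group means of 1.54 to 2.23 and 1.59 to 2.18. Marco and Timd4 likewise stayed at 1.28 to 1.65 and 0.93 to 1.03. Others of the list were higher after injury, though below log2 5. Cd5l averaged 1.20 in quiescent cells, 3.27 after bile duct ligation and 2.29 after CCl4, and Vsig4 averaged 1.31, 2.79 and 2.48. Cd14 averaged 2.27, 3.10 and 4.49 in these groups and 4.42 in coculture. Albumin (Alb) averaged 2.75 in quiescent cells, 8.25 after bile duct ligation and 9.33 after CCl4. Of 9 hepatocyte markers 0, 1 and 4 averaged log2 5 or more in these groups, with summed levels of 13.0 to 19.8, 24.2 to 30.2 and 31.8 to 50.4. Of 9 markers of endothelium and 9 of mesothelium and portal fibroblasts, none averaged log2 5 in any group. The summed level of the endothelial list was 12.9 to 14.9 in quiescent arrays, 14.3 to 17.0 in culture, 17.6 to 17.7 in coculture, 16.5 to 24.2 after bile duct ligation and 15.2 to 16.8 after CCl4. That of the mesothelial and portal list was 13.5 to 15.7 in quiescent arrays, 20.6 to 25.7 after bile duct ligation and 25.2 to 36.8 after CCl4. In coculture 1 of 5 neutrophil markers (S100a8) and 1 of 5 cholangiocyte markers (Krt19) averaged log2 5 or more, with summed levels of 14.3 to 16.5 and 13.7 to 14, against 6.4 to 7.1 and 8.3 to 10.4 in quiescent arrays. No marker value was 0 on this scale. The part of these cells in the changes of the 8 genes in coculture and after injury was not tested.

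The other genes of the pathway were taken as fixed lists. Of 19 other metalloproteinases and Timp4, 14 were on the array under their own symbol and 5 passed the filter. Of these 5, 4 were higher after bile duct ligation, 3 after CCl4, 3 in coculture and 2 in culture, each against quiescent cells and none lower. Some of the 5 passed the filter through the groups in which they were high. Over all 14 the median difference was 0.15, 0.11, 0.30 and 0.13 in these comparisons, beside 0.01, -0.01, 0.01 and 0.02 for all genes on the array. The macrophage elastase gene Mmp12 rose by 4.63 ± 0.56 after bile duct ligation and 3.67 ± 0.56 after CCl4 and differed by 0.27 ± 0.64 in coculture, which was not called. Its quiescent mean was 2.29, near background, so these sizes are at best lower bounds. The stromelysin gene Mmp3 rose by 5.10 ± 0.78 in coculture over culture. Mmp17, another membrane-bound enzyme, rose by 1.07 ± 0.31 in culture and was 1.58 ± 0.39 lower in coculture than in culture. Timp4 stayed between 1.87 and 2.58 on the 16 arrays.

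Of 13 tested genes that activate, dock or clear metalloproteinases, 6 were higher and 2 lower in culture against quiescent cells and 6 higher and 1 lower in coculture. Higher and lower numbered 4 and 2 after bile duct ligation and 3 and 2 after CCl4. Reck, a membrane-anchored inhibitor of Mmp2, Mmp9 and Mmp14, fell by 1.75 ± 0.25 after bile duct ligation (adjusted p = 0.000225) and fell by 1.44 ± 0.25 after CCl4 (adjusted p = 0.00107). In culture it rose by 0.88 ± 0.25, and it was 1.64 ± 0.32 lower in coculture than in culture. Lrp1, the endocytic receptor that clears proteases and TIMPs, fell by 2.15 ± 0.26 in culture and fell by 2.33 ± 0.30 in coculture. The proprotein convertase Pcsk5 rose by 3.48 ± 0.35 and 3.88 ± 0.40 in these groups, while Furin was called in none of the 8 comparisons. Tspan12, a tetraspanin that binds Mmp14, rose in all 4 activated groups, by 0.65 to 1.72. Cav1, which organises the membrane domains where Mmp14 is taken up, rose from a quiescent mean of 2.13, near background, to 7.40 after bile duct ligation and 7.45 after CCl4, which makes the differences of 5.27 ± 0.38 and 5.32 ± 0.38 at best lower bounds.

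In the plasminogen system, whose product plasmin activates several metalloproteinases, 7 genes were tested. In culture 1 was higher and 4 lower, with the urokinase gene Plau at -2.52 ± 0.41 and its receptor gene Plaur at -2.33 ± 0.56. In coculture against culture 3 were higher and 1 lower, with Plau up by 3.41 ± 0.51 and Serpinb2, a urokinase inhibitor, up by 8.83 ± 0.89, at best a lower bound since its culture mean was 1.94. Higher and lower numbered 1 and 2 after bile duct ligation and 2 and 2 after CCl4, with Plau up by 1.75 ± 0.41 after CCl4. S100a10, which holds plasminogen at the surface with Anxa2, was lower in coculture, after bile duct ligation and after CCl4 by 1.92, 0.81 and 0.84.

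Of 6 tested membrane ADAM proteases, which Timp3 can inhibit, 3 were higher in coculture against quiescent cells, 2 after bile duct ligation and 3 after CCl4, with none lower. Adam12 fell by 2.69 ± 0.29 in culture, where Adam10 rose by 0.58 ± 0.13. Adam17, the main target of Timp3 in this family, was called in none of the 8 comparisons. Among 15 tested matrix substrate genes, 8 were higher and none lower after bile duct ligation (median over all 16 on the array 0.63), 5 higher and 1 lower after CCl4 (0.20), 6 and 3 in culture (0.34) and 3 and 3 in coculture (0.06). Col1a2 rose by 3.40 ± 0.25 after bile duct ligation and by 1.12 ± 0.25 in culture. Lamc1, a laminin chain of the basement membrane, fell by 1.70 ± 0.26 in coculture. The background shares for these comparisons are those given above, and the lists were not tested as sets.

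**Figure D4:**
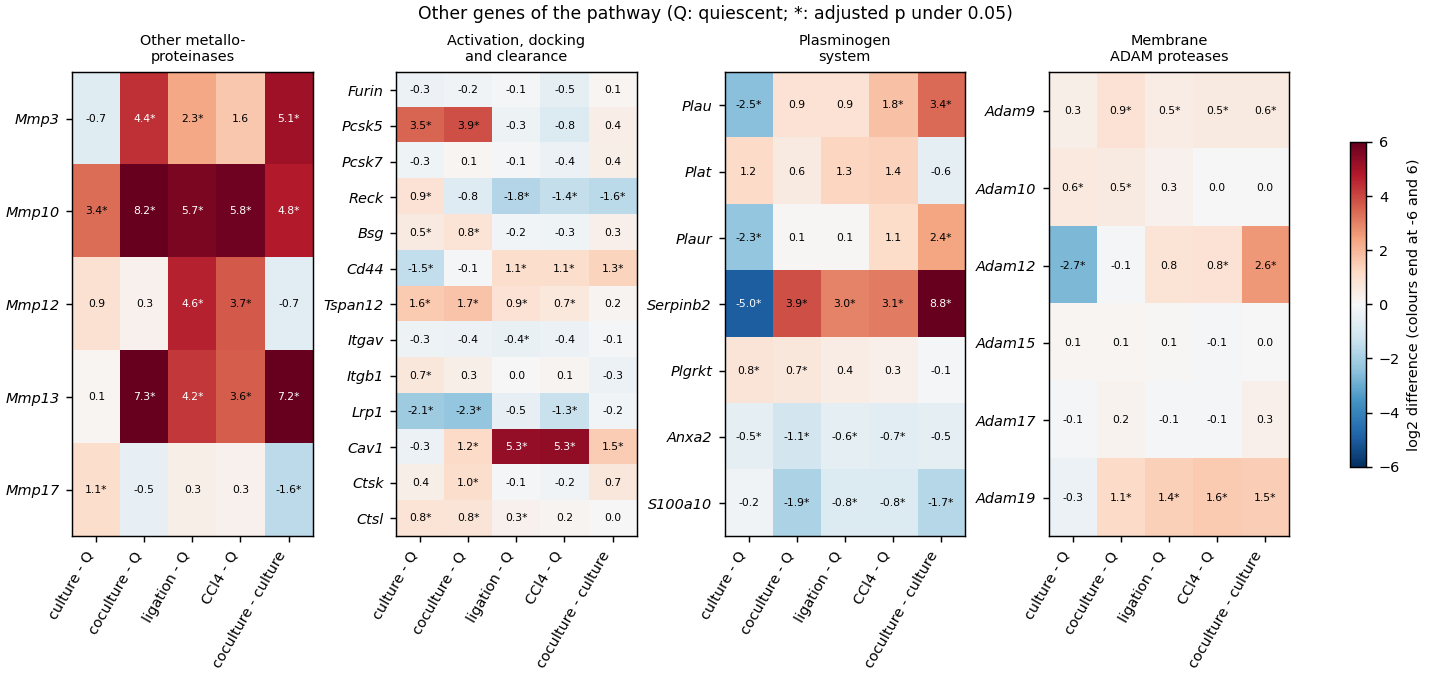
Log2 differences of the tested genes of 4 pathway lists (rows) in 5 comparisons (columns; ligation stands for bile duct ligation), coloured from blue (lower) to red (higher), with the value printed in each cell and an asterisk where adjusted p was under 0.05. Reck is lower and Cav1 higher after both injuries, and Plau and Plaur are called lower in culture.

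The genes whose profiles lay nearest to each of the 8 were found by the root-mean-square difference over the 16 arrays after centring each gene on its own mean. Nearest to Timp1 was Pdpn (podoplanin) at 0.57, beside a spread of 1.63 for Timp1 itself, and then Gprc5b (0.67) and Gask1b (0.82). Pdpn averaged 7.39 in quiescent cells, 6.06 in culture, 9.84 in coculture, 10.01 after bile duct ligation and 9.96 after CCl4. Nearest to Timp3 were the noncoding RNA Malat1 (0.37), Rin1 (0.45) and Pde4d (0.47), beside a spread of 1.09. Malat1 averaged 11.20 in quiescent cells, 9.23 in culture and 8.42 in coculture. Nearest to Timp2 were Nbdy, Pigk and Iscu (0.18 to 0.20, spread 0.54). For Mmp2 they were Gtf2i, Zfp160 and Fibp (0.34 to 0.36, spread 0.59) and for Mmp14 Ppfia1, Mgrn1 and Cpne2 (0.16, spread 0.28). For Mmp19 they were Scd1, Gas7 and Pde2a (0.79 to 0.91, spread 1.44), for Mmp23 AA414768, Plpp1 and Lgalsl (0.59 to 0.64, spread 1.13), and for Mmp11 Mtmr3, Pde8a and Dennd2a (0.43 to 0.44, spread 0.70). None of the 8 genes was among the 3 nearest of another. By distance the nearest members were Mmp2 and Mmp14, at 0.54, which was no close match beside their spreads of 0.59 and 0.28. Among 7715 genes Mmp14 ranked 588 in distance from Mmp2, and Mmp2 ranked 4659 from Mmp14.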

How the data were processed

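The authors deposited log2 expression values per probe set, and the submitters' processing notes name GCRMA, which corrects background from probe sequence, normalises by quantiles and summarises probes. Neither its version nor its settings are given in the sources used here. No normalisation was added. Of 45101 probe sets, 34958 had 1 gene symbol in the platform annotation. Controls (64) and sets without exactly 1 symbol were left out. Each gene was taken from its probe set of highest average level, and 7823 genes with log2 5 or more on at least 2 arrays were tested.

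All 16 arrays entered 1 linear model, with a mean for each of the 5 groups, in limma 3.58.1 (R 4.3.3; lmFit, then eBayes using a mean-variance trend). The 8 two-sided contrasts and the F-test were adjusted by Benjamini-Hochberg over all tested genes. In vivo or injury mean is the mean of the bile duct ligation and CCl4 group means. The code was tested on simulated data. The 8 genes, the lists and the tests were chosen with earlier results of these data known. Besides the 8 genes, the text names the 3 nearest genes of each and, per list and comparison, up to 4 genes with the smallest adjusted p. Furin, Adam17, Timp4, Reck in culture, Tspan12, Mmp12 in coculture and the genes of the closing section were named after their values were seen. The number of arrays limits the precision. Of the 3 coculture samples the design mentions, replicate 1 was not analysed here.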

Additional observations from a re-analysis of the deposited data

How the results depend on the processing

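Of the 27 alternatives, 26 were planned, and the fit without quiescent replicate 4 and culture replicate 3 together was added after seeing the data. It moved no count of called members by more than 1.5 times. The count of called members moved by more than that as follows. With the second highest probe set, which 4 of the 8 genes have above the filter, it was 3 in coculture against quiescent cells, 2 in coculture against culture, 0 after bile duct ligation, 1 after CCl4, 3 in culture and 1 in coculture against the injury mean, and 3 in the F-test. With the mean of probe sets it was 1 after bile duct ligation, 2 after CCl4 and 2 in coculture against the injury mean. With the filter at log2 7 it was 1 after bile duct ligation and 1 after CCl4, where 5 members were tested. With only the groups compared it was 1 in coculture against culture, 1 after bile duct ligation and 1 after CCl4, where 6 were tested. Without a trend it was 2 in coculture against culture. Over all genes the second probe set gave 1192, 407, 488, 564, 1603, 1012 and 1969 calls of 3083 in the order given above for it. The filter at log2 7 gave 936 calls of 5420 after bile duct ligation and 1231 after CCl4. Fewer members tested accounts for part of these counts by construction, and other causes were not tested.

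Leaving out each array in turn gave 3 to 4 called members in culture against quiescent cells, 3 to 6 in coculture against quiescent cells, 0 to 4 in coculture against culture, 2 to 3 after bile duct ligation, 0 to 4 after CCl4, 0 to 0 between the injuries, 4 to 5 in culture and 2 to 4 in coculture against the injury mean, and 6 to 8 in the F-test. Over all genes the same fits called 2571 to 3293 in culture, 769 to 1429 after bile duct ligation and 869 to 1884 after CCl4, each against quiescent cells. Timp2 reversed in coculture against quiescent cells with the mean of probe sets (-0.22) and with the second probe set (-0.74), and against the injury mean with the second probe set (-0.25). Its adjusted p against quiescent cells ran from 3.45e-05 to 0.319.

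The replicate numbers in the titles were shared across groups, but same-numbered arrays did not deviate together as a rule (correlations of -0.26 to 0.54 over 26 pairs, 7 above 0.1). They were therefore not taken as pairs in the main fit. Between culture and coculture, however, both same-numbered pairs were positive (0.31 and 0.54), beside -0.54 to 0.45 for differently numbered arrays. With 2 such pairs a shared preparation of these 2 groups can be neither shown nor excluded. With a replicate block the called members numbered 3, 4, 4, 3, 3, 0, 6 and 4 in the order of comparisons above, and 8 in the F-test. With it Mmp14 in coculture (-0.47, adjusted p = 0.0688), Mmp23 in coculture (1.86, 0.0517) and Mmp19 after CCl4 (2.21, 0.0588), each against quiescent cells, were not called, and Mmp2 in culture against the injury mean (0.55, 0.0357) and Mmp11 in the F-test (0.0455) were. All genes called went from 3291 to 2654 in culture and from 1205 to 1356 in coculture against culture with that block. All genes called fell most with the second probe set (culture, 3291 to 1301; CCl4, 1719 to 564), where fewer genes were tested, and without coculture replicate 2 (coculture against culture, 1205 to 412). Between the injuries they ran from 3 to 162, against 13. Centring or renormalising the arrays moved the median of all genes by at most 0.05.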

Other observations

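Mmp8, the collagenase best known from neutrophils, did not pass the filter but stood at 6.29 and 3.66 on the 2 coculture arrays. It lay between 1.32 and 2.38 on the other 14 arrays. S100a8, the only tested gene of the neutrophil marker list, averaged 9.88 ± 1.67 (SD, n = 2) in coculture and 1.62 to 2.29 in the other groups. The other neutrophil markers on the array, S100a9, Mpo, Elane and Camp, averaged 1.30 to 1.45 in coculture and 1.04 to 1.47 in quiescent cells. Mmp9, gelatinase B, lay between 1.06 and 1.84 on all 16 arrays. Both Mmp8 and Mmp9 were picked out after their values were seen.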
